A study of Mus musculus with 24 samples.

Results

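Mouse epidermal stem cells that expressed SOX9 together with AFOS were compared with cells that expressed SOX9 together with ARID1a, by the ATAC-seq peak lists of the 2 arms. ATAC-seq marks open chromatin with a transposase that inserts adapters where DNA is accessible. Both arms were keratinocytes from the back skin of male CD1 mice, carried K14rtTA and TRE-myc-Sox9, and received DOX (doxycycline) at 1 µg/ml, for 3 days as the names of the peaks give it. The first arm (SOX9+AFOS) also carried TRE-FLAG-AFOS and the second (SOX9+ARID1a) TRE-ARID1a, which the study delivered as coding sequences by lentivirus with puromycin selection. Each arm had 2 biological replicates that were merged before peaks were called, so 1 list stood for each arm. Neither a replicate spread nor a test between the arms could be had, and the confidence intervals below cover counting error only. The culture lists set beside them were noDOX (no DOX), WT-SOX9 (SOX9 alone), dHMG-SOX9 and dTA-SOX9 (SOX9 mutants labelled noHMG, for the DNA-binding domain, and noTA, for the transactivation domain) and AFOS (AFOS without SOX9), each again 1 list from 2 merged replicates. All but noDOX received DOX at 1 µg/ml. The study's methods describe delivery of wild-type and mutant SOX9 to K14rtTA cells by lentivirus. WT-SOX9 may thus differ from the 2 arms in more than AFOS or ARID1a. The in vivo lists came from sorted back skin cells of male K14rtTA; TRE-myc-Sox9 mice before (D0) and 1, 2, 6 and 12 weeks after SOX9 induction (W1, W2, W6, W12), the last from grafted skin. K14rtTA limits the transgenes to cells with an active keratin 14 promoter, the basal keratinocytes of the skin.

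The SOX9+AFOS list held 49458 peaks and the SOX9+ARID1a list 57982. Peaks that overlapped by at least 1 bp were merged, which gave 68345 regions for the 2 lists. All 12 lists of the series, merged the same way, gave 134385. Of the 68345 regions, 37512 had a peak in both lists (shared regions), 11921 in SOX9+AFOS only, which was 17.4% of the 68345, and 18912 in SOX9+ARID1a only, which was 27.7%. The longer list thus also held more regions of its own. When the SOX9+ARID1a list was shortened by score to the length of the other, the order turned, to 15130 SOX9+AFOS-only and 13945 SOX9+ARID1a-only regions. The lengths of the one-list classes therefore give no direction, and the comparison below rests on what the regions of each class held.

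SOX9 is an HMG-box transcription factor of hair follicle stem cells that can bind closed chromatin, and its induction in epidermal stem cells moves them towards a hair follicle fate. AP1 is a family of dimers of FOS and JUN proteins that bind the sequence TGACTCA at many enhancers of keratinocytes. AFOS, made from c-FOS, acts as a dominant negative, since AP1 proteins paired with it cannot bind DNA. ARID1a is the DNA-binding subunit of the canonical BAF form of SWI/SNF, a complex that uses ATP to move nucleosomes and open enhancers. The design thus set a block of AP1 against added remodeller subunit, both on a background of SOX9.

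Regions with a large difference between the arms are printed first, chosen on the ARID1a side for their AP1 match, as the 200 bp around the centre of the region on the plus strand of GRCm38 (RefSeq sequence of the GRCm38.p6 assembly), with matches to TGACTCA on either strand in capitals. The first 3, from chr5:48564173-48564372, chr6:37399035-37399234 and chr1:130747218-130747417, had a far higher score with ARID1a than with AFOS or a peak with ARID1a alone, and their values are given further below.
Kcnip4: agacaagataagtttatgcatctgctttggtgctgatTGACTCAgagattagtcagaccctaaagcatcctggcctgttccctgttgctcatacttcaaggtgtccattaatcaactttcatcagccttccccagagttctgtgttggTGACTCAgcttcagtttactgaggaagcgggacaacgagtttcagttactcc
Creb3l2: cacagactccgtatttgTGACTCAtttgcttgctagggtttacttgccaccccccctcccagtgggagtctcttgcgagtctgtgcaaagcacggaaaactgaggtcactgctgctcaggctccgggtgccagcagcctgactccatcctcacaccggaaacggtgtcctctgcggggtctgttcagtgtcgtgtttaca
AA986860: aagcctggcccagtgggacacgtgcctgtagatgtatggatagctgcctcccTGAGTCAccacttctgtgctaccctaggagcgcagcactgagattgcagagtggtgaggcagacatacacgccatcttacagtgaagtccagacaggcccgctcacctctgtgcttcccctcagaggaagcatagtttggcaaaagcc
A further 3 windows, from chr5:103360749-103360948, chr6:122702672-122702871 and chr11:72506656-72506855, had a far higher score with AFOS or a peak with AFOS alone and held no TGACTCA, and here the capitals mark CCACACCC (a KLF consensus) or GGAATG (a TEAD consensus).
Ptpn13: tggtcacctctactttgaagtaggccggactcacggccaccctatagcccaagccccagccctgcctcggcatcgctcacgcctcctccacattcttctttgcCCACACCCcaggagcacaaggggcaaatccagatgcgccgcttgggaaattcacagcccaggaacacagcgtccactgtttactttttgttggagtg
Nanog: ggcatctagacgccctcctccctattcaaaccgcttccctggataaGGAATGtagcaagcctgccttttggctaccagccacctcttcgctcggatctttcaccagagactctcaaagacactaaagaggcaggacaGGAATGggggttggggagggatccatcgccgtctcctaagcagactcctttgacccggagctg
Spns2: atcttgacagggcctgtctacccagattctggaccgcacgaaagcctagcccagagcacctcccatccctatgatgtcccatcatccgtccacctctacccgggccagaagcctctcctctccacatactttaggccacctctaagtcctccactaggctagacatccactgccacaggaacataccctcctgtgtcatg
A match is a description of the letters in a window and not of a protein bound there.

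The labels were checked at the delivered genes, where inserted coding DNA that lacks introns is read as peaks over exons. Arid1a (chr4:133679008-133756769, minus strand) has 20 exons in the transcript used. In the SOX9+ARID1a list 14 peaks lay by at least 50% of their width in exons past the first, over 17 of the 19 such exons, with scores of 3.96 to 38.2. The SOX9+AFOS list also held 7 such peaks, with scores of 3.43 to 7.86, and the AFOS list 9, with scores of 3.17 to 8.69, whereas the noDOX, WT-SOX9, dHMG-SOX9 and dTA-SOX9 lists held 1 or none. The exon peaks of Arid1a were thus most numerous and highest where the label names ARID1a, and they were also present in both lists labelled AFOS. What put them there was not tested, and SOX9+AFOS is to be read below as the libraries so labelled. Sox9 (chr11:112782224-112787760) had 2 such peaks in each arm, with scores of 4.61 and 5.11 in SOX9+AFOS and of 3.71 and 4.14 in SOX9+ARID1a, and noDOX had 1, with 3.71. The exon scores of both arms were thus close to that of noDOX. In WT-SOX9, dHMG-SOX9 and dTA-SOX9 a single wide peak ran from the Sox9 TSS into exons past the first, with scores of 21.2, 71.9 and 101.4. The region at the TSS also scored 21.82 in noDOX and 22.85 in AFOS, so that the score of WT-SOX9 was no higher than without DOX or SOX9. In SOX9+AFOS it scored 13.3 and in SOX9+ARID1a 6.49. The delivery of SOX9 in the 2 arms was thus not clear from this check. Fos had no peak past its first exon in any culture list, so the delivery of AFOS could not be checked. Leaving out the gene bodies of Sox9, Arid1a and Fos removed 15 shared regions, 9 SOX9+ARID1a-only regions and no SOX9+AFOS-only region. All 10 keratinocyte markers (among them Krt5, Krt14, Trp63, Itga6 and Cdh1) had a peak within 1 kb of a transcription start site (TSS) in both arms. Of 7 melanocyte markers 4 had one in SOX9+AFOS (Dct, Pmel, Mlana, Mitf) and 2 in SOX9+ARID1a (Pmel, Mitf), as in noDOX, and of the immune cell, fibroblast and endothelial markers 1 or 2 per list had one. The part of such cells in the results was not tested.

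The deposited score of a peak is its MACS2 score scaled by the total of the list, with a lowest value of 3 in both lists. SOX9+AFOS-only regions scored low in their own list, with a lowest score of 3, a median of 4.84 and a highest of 67.8. SOX9+ARID1a-only regions ran from 3 over a median of 5.91 to 80.9. Shared regions had medians of 15.2 in SOX9+AFOS and 14.6 in SOX9+ARID1a. The 2 one-list classes thus sat in the lower part of their lists, the SOX9+AFOS-only regions lower than the others. Their median rank was at the 20.97th percentile of the SOX9+AFOS list, and that of the SOX9+ARID1a-only regions at the 29.7th percentile of the SOX9+ARID1a list. Among the highest-scoring 10% of peaks, 8 regions were SOX9+AFOS-only and 103 SOX9+ARID1a-only. The share of regions without a counterpart fell from 60.6% in the lowest-scoring 10% of the SOX9+AFOS list to 0.162% in the highest 10%, and from 61.3% to 1.72% in the SOX9+ARID1a list. With each list cut into 10 equal bins by score, it was in every bin higher in the SOX9+ARID1a list. That list was the longer one, and neither the ranks nor the bins were taken from lists of equal length, so they give no direction between the arms.

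**Figure D1:**
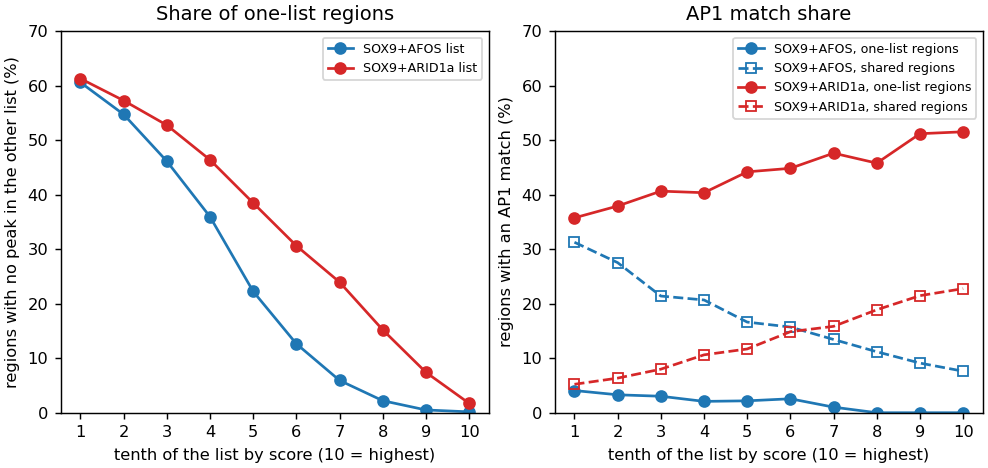
Regions of each list in 10 equal bins by score (x axis, 10 is the highest). The left panel gives the percentage with no peak in the other list, which falls from about 61 in both lists to under 2, and the right panel the percentage with an AP1 match in the central 200 bp, which is 35.8 to 51.5 in SOX9+ARID1a-only regions and at most 4.07 in SOX9+AFOS-only regions.

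The AP1 sequence separated the classes. TGACTCA, on either strand, lay in the central 200 bp of 7767 of 18912 SOX9+ARID1a-only regions (41.1%, 95% Wilson interval 40.4 to 41.8) and of 360 of 11921 SOX9+AFOS-only regions (3.02%, 2.73 to 3.34). Shared regions were between them, with 5758 of 37512 (15.3%), and the share over all regions was 20.3%. The difference between the one-list classes was 38.05 percentage points (Newcombe interval 37.3 to 38.8), and it rests on 1 list per arm. Windows of the same length placed 2 kb to either side of the regions held TGACTCA in 3.52 to 3.56% in each of the 3 classes. SOX9+AFOS-only regions therefore carried the AP1 sequence no more often than the DNA beside them, and SOX9+ARID1a-only regions far more often. Of the 13885 of the 68345 regions with a match, 55.9% were SOX9+ARID1a-only, 41.5% shared and 2.59% SOX9+AFOS-only. More than 1 match was present in 832 SOX9+ARID1a-only regions (4.40%) and in 7 SOX9+AFOS-only regions (0.0587%). Regions over 1 kb from a TSS gave the same picture, with 41.2% and 3.24%.

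Over all regions of a list, the AP1 share hardly moved with the score in SOX9+ARID1a, with 23.9% in the lowest and 23.3% in the highest of the 10 bins and 22.98 to 25.2% in all of them, and it was 14.8% in the lowest and 7.605% in the highest bin of SOX9+AFOS. Within the classes it did move. Among SOX9+ARID1a-only regions it was 35.8% in the lowest bin of the list and 51.5% in the highest, and among shared regions 5.22% and 22.8%. In the SOX9+AFOS list the share of shared regions with a match fell from 31.3% in the lowest bin to 7.62% in the highest. SOX9+AFOS-only regions were at 4.07% in the lowest bin, and none of the 109, 25 and 8 in the highest 3 bins had a match. In the highest bin the AP1 sequence was thus less frequent with AFOS than with ARID1a, and the SOX9+ARID1a list as a whole kept about the same share at every score.

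Over whole lists, an AP1 match lay in the central 200 bp of 12.6% of SOX9+AFOS peaks and of 24.5% of SOX9+ARID1a peaks. The other culture lists gave 23.6% in noDOX, 18.3% in WT-SOX9, 24.5% in dHMG-SOX9, 25.7% in dTA-SOX9 and 26.5% in AFOS, and the in vivo lists 14.7 to 23.8%. SOX9+AFOS had the lowest share of the 12 lists, and SOX9+ARID1a stood nearer to noDOX than to WT-SOX9. AFOS without SOX9 had the highest share of the 12. Among the 20000 highest peaks of each list, the share was 10.1% in SOX9+AFOS, 24.9% in SOX9+ARID1a, 23.2% in AFOS and 20.5% in noDOX. The lists other than AFOS and these 2 carry no fragment mark in their peak names and may have been called another way, which cannot be told apart from the arm.

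A search without a preset sequence led to the same letters. Of all 8192 sequences of 7 bases, with strands joined, TGACTCA had the largest difference in share between SOX9+ARID1a-only and SOX9+AFOS-only regions. The next were overlapping stretches of the same site, GAGTCAC (18.8% against 2.73%), ATGACTC (16.2% against 2.00%) and CTGAGTC (17.6% against 3.72%), and then the single-base variants TGACTAA (11.5% against 1.30%) and TGAATCA (11.6% against 1.49%). On the other side AGAGGGC led, with 10.9% of SOX9+AFOS-only and 3.57% of SOX9+ARID1a-only regions, followed by AGGGGGC (7.77% against 0.984%) and AGGTGGC (8.98% against 3.66%). These are parts of the consensus of CTCF, the zinc finger protein of chromatin loop anchors, and the next ones were runs of C and G such as CCCGCCC (7.16% against 1.89%). These sequences were singled out after their values were seen.

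The full CTCF consensus gave the reverse of AP1. It lay in 908 SOX9+AFOS-only regions (7.62%, 7.15 to 8.11), in 750 shared regions (2.00%) and in 26 SOX9+ARID1a-only regions (0.137%, 0.0938 to 0.201), against 0.155% of the windows 2 kb away. Of the 1684 of the 68345 regions with a match, 53.9% were SOX9+AFOS-only and 1.54% SOX9+ARID1a-only. Of the 908 regions, 812 had a peak in at least 1 of the other 10 lists, with 43.8% in noDOX, 54.9% in WT-SOX9, 51.8% in AFOS and 55.3% in W12. CTCF regions that the SOX9+ARID1a list lacked were thus for the most part (89.4%) open elsewhere. So were 98.7% of shared and 88.5% of SOX9+ARID1a-only regions with a match. Of all SOX9+AFOS-only regions, 28.5% had no peak in any of the other 10 lists. The whole SOX9+ARID1a list had the lowest CTCF share of the 12 lists (1.55%) and SOX9+AFOS the highest (3.38%). Among the 20000 highest peaks SOX9+AFOS was again the highest (1.035%), while SOX9+ARID1a (0.455%) was not the lowest, with D0 at 0.410%. Shared CTCF regions had a median score of 9.71 in SOX9+AFOS and of 5.29 in SOX9+ARID1a.

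SOX sequences (ACAATAG or ACAATGG, either strand) differed little. They lay in 6.98% of SOX9+ARID1a-only (6.63 to 7.35), 6.09% of SOX9+AFOS-only (5.68 to 6.53) and 5.32% of shared regions, and in 4.74% of the windows beside them. The difference of 0.890 percentage points (0.322 to 1.45) turned to -0.403 (-1.33 to 0.475) among one-list regions that scored at least 6. A SOX and an AP1 match occurred together in 435 SOX9+ARID1a-only regions (2.30%) and in 22 SOX9+AFOS-only regions (0.185%). Of the SOX-bearing regions, 33.0% in the first class and 3.03% in the second also held TGACTCA, against 41.1% and 3.02% of all regions of these classes. The inverted SOX pair, in which 2 SOX sites face each other, was in 23 and 21 regions.

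For the other factors the classes lay close together. The sequence AGATAA, a consensus of the GATA factors, was in 10.3% of SOX9+ARID1a-only and 8.25% of SOX9+AFOS-only regions, against 10.8% of the windows beside them, and RUNX (TGTGGT) in 18.1% and 18.2%. The p63 pair of CATG half-sites was in 1.34% and 1.01%, and GRHL (AACNGGTT), the grainyhead sequence of epithelia, in 2.69% and 3.18%. TEAD (GGAATG), the partner of YAP, was in 16.9% and 20.6%, KLF (CCACACCC or CCCCACCC) in 7.52% and 11.4%, CEBP (TTGCNNAA) in 9.19% and 10.8%, and NFY (ATTGG) in 19.0% and 21.4%. The last 4 were thus more frequent on the AFOS side, with differences of SOX9+ARID1a-only minus SOX9+AFOS-only regions between -1.59 (CEBP) and -3.86 (KLF) percentage points. CREB (TGACGTCA), which some AP1 dimers also bind, was in 0.423% and 0.302%, with an interval of the difference of -0.0214 to 0.254 points. Over all 68345 regions the shares were 5.91% for SOX, 8.23% for GATA, 16.8% for RUNX, 17.5% for TEAD, 1.11% for p63, 2.93% for GRHL, 10.1% for KLF, 9.24% for CEBP, 19.9% for NFY, 0.563% for CREB and 2.46% for CTCF.

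**Figure D2:**
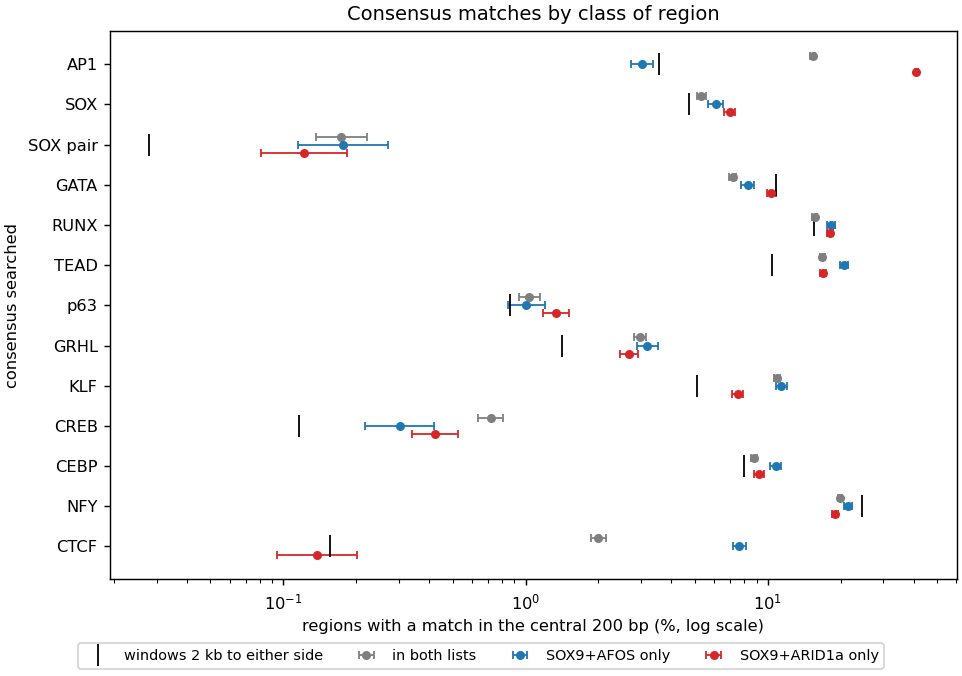
Percentage of regions (x axis, log scale) with a consensus match in the central 200 bp, for shared, SOX9+AFOS-only and SOX9+ARID1a-only regions, with 95% Wilson intervals, and for windows 2 kb to either side (black ticks). AP1 lies at 41.1% in SOX9+ARID1a-only and 3.02% in SOX9+AFOS-only regions, CTCF at 0.137% and 7.62%, and the other sequences lie close together.

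**Figure D3:**
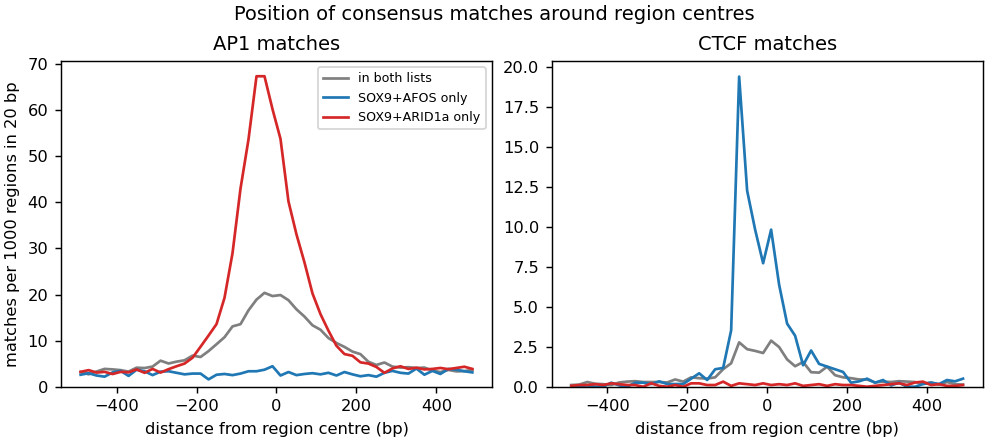
Matches per 1000 regions in bins of 20 bp (y axes) by distance from the region centre (x axes), for AP1 (left) and CTCF (right) in the 3 classes. AP1 reaches 67.4 per 1000 near the centre of SOX9+ARID1a-only regions and stays at or below 4.45 in SOX9+AFOS-only regions, and CTCF shows a peak in SOX9+AFOS-only and shared regions.

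The classes also lay at different places. Of SOX9+AFOS-only regions 12.3% (11.7 to 12.9) had their centre within 1 kb of the TSS of a protein-coding transcript, and of SOX9+ARID1a-only regions 3.15% (2.91 to 3.41), against 27.6% of shared regions. With only peaks that scored at least 5 in both lists, the shares were 17.7% and 3.06%. The median distance to a TSS was 16867 bp for the first class, 25168 bp for the second and 10892 bp for shared regions. Introns beyond 1 kb of a TSS held 38.5% of SOX9+AFOS-only and 48.6% of SOX9+ARID1a-only regions, and intergenic DNA 44.8% and 44.4%. SOX9+ARID1a-only regions were thus more often distal and intronic, narrower (median 326 against 372 bp), and lower in GC (median 47.5% against 50%). The peaks of the whole SOX9+ARID1a list were also the narrower ones, with a median of 411 against 529 bp. Of the 12412 of the 68345 regions near a TSS, 83.4% were shared, 11.8% SOX9+AFOS-only and 4.79% SOX9+ARID1a-only. The part of width, GC and TSS distance in the shares of AP1 and CTCF matches was not tested beyond the distal regions, of which 41.2% and 3.24% held AP1 and 0.142% and 8.41% CTCF in the SOX9+ARID1a-only and SOX9+AFOS-only classes.

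For AP1, CTCF and the TSS, the scores of shared regions showed the same contrast among regions with a called peak in both lists. Over the 37512 shared regions the 2 scores had a Spearman rho of 0.58, given as a description across regions, and the median log2 ratio of SOX9+ARID1a to SOX9+AFOS was -0.38. The score was at least 2-fold higher in SOX9+AFOS at 7775 shared regions (20.7%) and at least 2-fold higher in SOX9+ARID1a at 6552 (17.5%). An AP1 match lay in 39.3% of the second group (38.1 to 40.5) and in 2.64% of the first (2.30 to 3.02), with 12.8% in the 23185 regions between. The regions higher with ARID1a thus had nearly the AP1 share of the SOX9+ARID1a-only regions, and those higher with AFOS that of the SOX9+AFOS-only regions. A TSS lay within 1 kb of 3.01% and 44.6% of them, and CTCF in 0.214% and 3.14%. The median log2 ratio was 0.85 at shared regions with TGACTCA and -0.52 at those without it, -0.78 at those with CTCF, -0.81 near a TSS, -0.06 with a SOX match and 0.09 with GATA. TEAD and CEBP, more frequent in SOX9+AFOS-only than in SOX9+ARID1a-only regions, had the reverse order here, with TEAD in 14.9% of the shared regions higher with AFOS and 20.2% of those higher with ARID1a, and CEBP in 7.72% and 9.89%. RUNX was in 12.3% and 19.0% of these groups and GATA in 4.90% and 10.3%.

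The other lists showed where the one-list regions were open besides. A noDOX peak overlapped 61.1% of SOX9+ARID1a-only (60.4 to 61.8) and 29.3% of SOX9+AFOS-only regions (28.5 to 30.2), against 84.6% of shared regions. The difference was 31.7 percentage points (30.6 to 32.8). The WT-SOX9 list overlapped 43.3% and 36.1%, dHMG-SOX9 53.4% and 27.04%, dTA-SOX9 59.1% and 23.6%, and AFOS without SOX9 61.3% and 30.7%. SOX9+ARID1a-only regions were thus the more often open in all 5 culture lists, by 7.20 points in WT-SOX9 and by 26.4 to 35.6 points in the others. The WT-SOX9 difference was 15.8 points among one-list regions that scored at least 6 and 12.05 points among distal regions. With only peaks that scored at least 5 in both lists, the noDOX shares were 74.9% and 46.2% and the AFOS shares 71.0% and 47.0%. The AFOS list, the only one of these with a fragment mark in its peak names like the compared lists, gave 30.5 points (29.5 to 31.6). In vivo the order differed. D0 peaks overlapped 26.7% of SOX9+ARID1a-only and 30.8% of SOX9+AFOS-only regions, W1 23.6% and 37.2%, W2 31.0% and 35.9%, W6 41.8% and 45.1%, and W12 47.8% and 38.5%. SOX9+AFOS-only regions were the more often open from D0 to W6 and the less often at W12. Among regions over 1 kb from a TSS the order turned at D0 (26.3% and 25.5%) and W6 (41.6% and 40.6%).

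**Figure D4:**
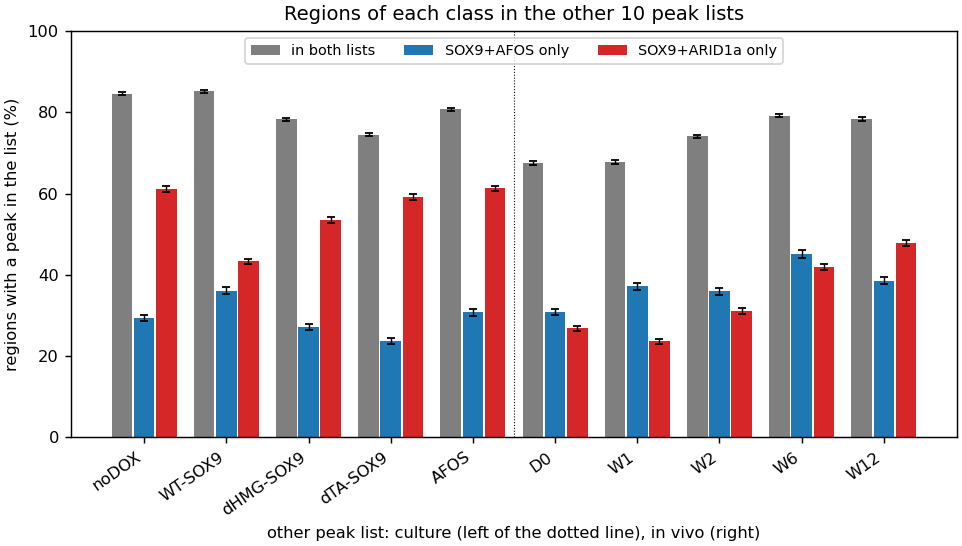
Percentage of regions of each class (y axis) that overlap a peak of each of the 5 other culture lists and 5 in vivo lists (x axis), with 95% Wilson intervals. SOX9+ARID1a-only regions exceed SOX9+AFOS-only regions in all 5 culture lists, at 61.1% against 29.3% in noDOX, and in W12 among the in vivo lists.

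Regions open in noDOX and without a peak in WT-SOX9 made up 30.6% of the SOX9+ARID1a-only class (5779 regions), 7.77% of the SOX9+AFOS-only class (926) and 7.93% of shared regions (2975). An AP1 match lay in 45.6% of those 5779 regions, in 5.40% of the 926 and in 15.6% of the 2975, and a SOX match in 3.74%, 3.35% and 3.63%. Of the 5779, 4271 also had a peak in AFOS without SOX9, as had 397 of the 926 and 1820 of the 2975. Of the SOX9+ARID1a-only regions open in both noDOX and WT-SOX9, 5125 of 5770 had an AFOS peak, so that the overlap is not particular to this pattern. Regions with the opposite pattern, no peak in noDOX and one in WT-SOX9, made up 12.8% of SOX9+ARID1a-only regions (2413), 14.5% of SOX9+AFOS-only regions (1728) and 8.57% of shared regions (3215). SOX matches were most frequent there, in 19.4%, 10.2% and 17.2%, while AP1 was in 25.8%, 3.12% and 6.03%. Regions that SOX9 alone gained were thus found in every class, with about the same share of SOX matches in shared and SOX9+ARID1a-only regions and a lower one in SOX9+AFOS-only regions. No peak in any of the other 10 lists was found at 28.5% of SOX9+AFOS-only, 9.57% of SOX9+ARID1a-only and 2.21% of shared regions. Regions absent at D0 and present at both W6 and W12 made up 16.0% of SOX9+ARID1a-only regions, with AP1 in 49.9% of them, and 9.08% of SOX9+AFOS-only regions, with AP1 in 3.79%.

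The highest SOX9+ARID1a-only regions were open in most of the other culture lists, and of the 6 only that of AA986860 held an AP1 match in its centre. The first, at chr15:81192860-81193278, lay 2312 bp upstream of Mrtfa, which codes for a coactivator of serum response factor. It scored 80.9 in SOX9+ARID1a, 86.1 in noDOX, 57.4 in AFOS and 8.95 in WT-SOX9. The second lay in an exon of Ctsf (cathepsin F, a lysosomal protease) at chr19:4858936-4859560, with 75.3 in SOX9+ARID1a, 41.7 in noDOX and 38.3 in WT-SOX9. An intron region of Magi2, a scaffold of cell junctions, at chr5:20662669-20663447, scored 72.1, with 38.0 in noDOX and no peak in WT-SOX9. These 3 regions, and those nearest to Apbb2 (68.7), AA986860 (63.2) and, at a distance of 179609 bp, Gpam (62.1), all had a noDOX peak, and all but that of Magi2 a WT-SOX9 peak. The AA986860 region, whose sequence stands above, lay at chr1:130747052-130747583 and scored 68.5 in noDOX, 93.4 in AFOS and 18.4 in WT-SOX9.

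The highest SOX9+AFOS-only regions were closed in most lists. The first, at chr5:103360472-103361225, was intergenic, 64652 bp upstream of Ptpn13 (a tyrosine phosphatase). It scored 67.8 in SOX9+AFOS, had no peak in any other culture list, and 23.3, 16.9 and 7.92 in W2, W6 and W12. The next lay 4717 bp upstream of Nanog, a pluripotency factor, at chr6:122702266-122703277, with 60.4 in SOX9+AFOS and 3.97 and 3.26 in W2 and W6. An intron of Ninj2 held the third (chr6:120107746-120108509, 60.0), which was also in WT-SOX9 (12.2) and AFOS (4.42). The regions nearest to Commd8 (56.4), Timp3 (55.2) and Elac1 (53.3) followed, and the last 2 of these had no peak in any of the other 10 lists. None of the 6 had a noDOX peak or an AP1 match, against 29.3% and 3.02% of all SOX9+AFOS-only regions.

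The shared regions with the largest score ratios followed. On the ARID1a side, the Kcnip4 intron region (chr5:48564019-48564526), with 2 AP1 matches, scored 82.0 in SOX9+ARID1a and 3.05 in SOX9+AFOS, with 63.3 in noDOX and 38.1 in WT-SOX9. The Creb3l2 intron region (chr6:37398788-37399481), in a gene for a transcription factor of the secretory pathway, scored 66.5 and 3.14, with 63.5 in noDOX. A region 686 bp downstream of a TSS of Ikbkb, which codes for a kinase of the NF-κB pathway, scored 81.2 and 3.87 and held 1 AP1 match. The other 2, nearest to Med30 (72.3 and 3.50) and Stra6 (58.6 and 3.14), held none, and all 5 had peaks in all 5 other culture lists. The Med30 region lay 236031 bp from the TSS. On the AFOS side, the region in an intron of Spns3 nearest to Spns2 (chr11:72506320-72507191) scored 88.9 in SOX9+AFOS and 5.21 in SOX9+ARID1a and had no peak in any other list. Those nearest to Lrrc52 (50.7 and 3.16), Zdhhc25 (73.0 and 4.56), Lcmt2 (47.9 and 3.13) and Cdo1 (47.1 and 3.10) followed. None of the 5 had an AP1 match, against 2.64% of all shared regions at least 2-fold higher with AFOS. That of Cdo1 was also open in noDOX (6.97), dHMG-SOX9 (6.13), dTA-SOX9 (3.26) and AFOS (8.23), and that of Lrrc52 in WT-SOX9 (3.21). The ratio was at least 4.22 on the log2 scale in the first 5 and at most -3.93 in the second 5.

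The genes with the most SOX9+ARID1a-only regions, counted by the nearest TSS within 100 kb, were mostly long. Pard3, a cell polarity gene of 548 kb, had 19, with 5 SOX9+AFOS-only regions, and 6 of the 19 held AP1. Foxp1, a forkhead repressor, had 18 and 6, Akap13 16 and 3, Ntm 16 and 0, Frmd4a 16 and 7, and Sik3, a kinase of the salt-inducible family, 15 and 0. Hdac4 had 15 and 4, Camk2d 15 and 5, Btbd11 15 and 1, Arhgap26 15 and 2, Arhgef3 14 and 2, and Dusp10, a phosphatase that acts on stress kinases, 14 and 1. Between 4 and 15 of each gene's regions were open in noDOX. Over the whole SOX9+ARID1a-only class 61.1% were open in noDOX and 41.1% held AP1. On the other side Zfp516 had 12 SOX9+AFOS-only and 4 SOX9+ARID1a-only regions, Fry 10 and 0, Nedd4l 10 and 9, Ephb3 9 and 3, and Ppargc1a, a coactivator of mitochondrial genes, 8 and 0. Hunk (8 and 1), Fzd7 (8 and 2), Pde7a (8 and 1), Ank3 (8 and 7), Sik1 (8 and 7), Sept9 (8 and 10) and Nav2 (8 and 11) completed the 12. Not 1 of the SOX9+AFOS-only regions of these 12 genes held an AP1 match, and 0 to 3 per gene were open in noDOX. Over the whole SOX9+AFOS-only class the shares were 3.02% and 29.3%, so the rarity of AP1 is not particular to these genes. Over all 15167 genes with a region, 5465 had more SOX9+ARID1a-only and 3757 more SOX9+AFOS-only regions.

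The 12 gene lists were read against all 60077 regions with a TSS within 100 kb, of which 26.0% were SOX9+ARID1a-only and 17.5% SOX9+AFOS-only. In 7 of the 12 lists the intervals of both shares held these values. The SOX9+ARID1a-only share lay above 26.0% with its whole interval for Hedgehog genes and below it for differentiation, activated keratinocyte and SWI/SNF genes, and the SOX9+AFOS-only share lay above 17.5% for EMT and mesenchymal genes. For the 20 epidermal identity factors the shares were 24.2% and 13.7% of 248 regions, and 12 genes had more SOX9+ARID1a-only regions, 5 fewer and 3 as many. Of their 60 SOX9+ARID1a-only regions 42 were open in noDOX and 21 held AP1, against 2 of 34 with AP1 on the AFOS side. Over all genes 9439 of 15605 SOX9+ARID1a-only regions were open in noDOX and 6353 held AP1, against 302 of 10510 with AP1 on the AFOS side, so that these counts are not particular to the list. Trp63, the master regulator of stratified epithelia, had 9 against 2, Maf 5 against 0, Barx2 5 against 1 and Hopx 4 against 1. For the 22 epidermal differentiation genes the shares were 17.0% and 13.8% of 94 regions, and 25.7% and 13.1% of 191 when regions were counted over the gene body and 50 kb on each side. By the nearest TSS, single genes differed, with Calml3 at 2 against 5 and Alox12b, a lipoxygenase of the skin barrier, at 2 against 0.

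The hair follicle stem cell and outer root sheath genes had 49 SOX9+ARID1a-only and 36 SOX9+AFOS-only of 210 regions (23.3% and 17.1%). Cd34, a surface marker of follicle stem cells, had 6 against 0 and Cux1 10 against 6, whereas Tbx1 had 1 against 6 and Nfib, a chromatin regulator of these cells, 0 against 4. The Hedgehog genes had 25 SOX9+ARID1a-only of 68 regions (36.8%, 26.3 to 48.6), of which Gli2 held 11 and Gli3 6. Both code for transcription factors at the end of the pathway, and 5 genes of the list had more regions on each side. With regions counted over the gene body and 50 kb on each side, the Hedgehog share was 28.4%. The WNT genes had 30 and 29 of 133 regions, with the receptor genes Fzd7 at 2 against 8, Fzd10 at 2 against 5 and Fzd1 at 4 against 0, and the ligand gene Wnt10a at 0 against 3.

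The genes of AP1 and related bZIP factors had 34 SOX9+ARID1a-only and 23 SOX9+AFOS-only of 137 regions (24.8% and 16.8%). With regions counted over the gene body and its flanks the order turned, to 44 and 49 of 232. An AP1 match lay in 17 of the 34 and 1 of the 23, near the shares of these classes over all genes given above. Bach1 had 6 against 2, Fosl2, a FOS-family subunit, 5 against 2, Bach2 8 against 6, and Fosb 0 against 3. The EGF receptor and ligand genes had 31 SOX9+ARID1a-only and 21 SOX9+AFOS-only of 131 regions (23.7% and 16.0%), and of them Nrg1 had 10 against 1 and Areg (amphiregulin) 7 against 3, while the receptor gene Egfr had 2 against 6 and its feedback inhibitor Errfi1 1 against 4. The hemidesmosome, integrin and basement membrane genes had 43 and 28 of 179 regions, with 9 genes higher on the ARID1a side, 4 on the AFOS side and 3 tied. Lama3 had 5 against 0, Dst 8 against 3 and Itgb6 6 against 3, whereas Plec had 3 against 5. In the wound, protease and cytokine genes of activated keratinocytes the balance was 15 to 18 of 93 regions, with Il1a at 3 against 0 and Il1b at 0 against 3, 2 cytokine genes with opposite counts. The EMT factor and mesenchymal genes had the highest share of SOX9+AFOS-only regions, with 21 of 70 (30.0%, 20.5 to 41.5), above the 17.5% of all regions by the nearest TSS, but 25 and 25 of 98 on the AFOS and ARID1a sides over gene bodies and flanks. Tgfb2 made up 7 of these 21 and had 1 region on the ARID1a side, Vim had 2 and 0, and Zeb1, a repressor of epithelial genes, had 0 and 4. The SWI/SNF subunit genes, to which ARID1a belongs, had 18 and 19 of 112 regions (57 and 47 of 285 over gene bodies and flanks), with 3 of the 18, and 11 of the 57 and 2 of the 47, at the delivered gene Arid1a, and the housekeeping genes 24 and 15 of 83 (40 and 40 of 200 over gene bodies and flanks), of which Ywhaz held 13 and 5.

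**Figure D5:**
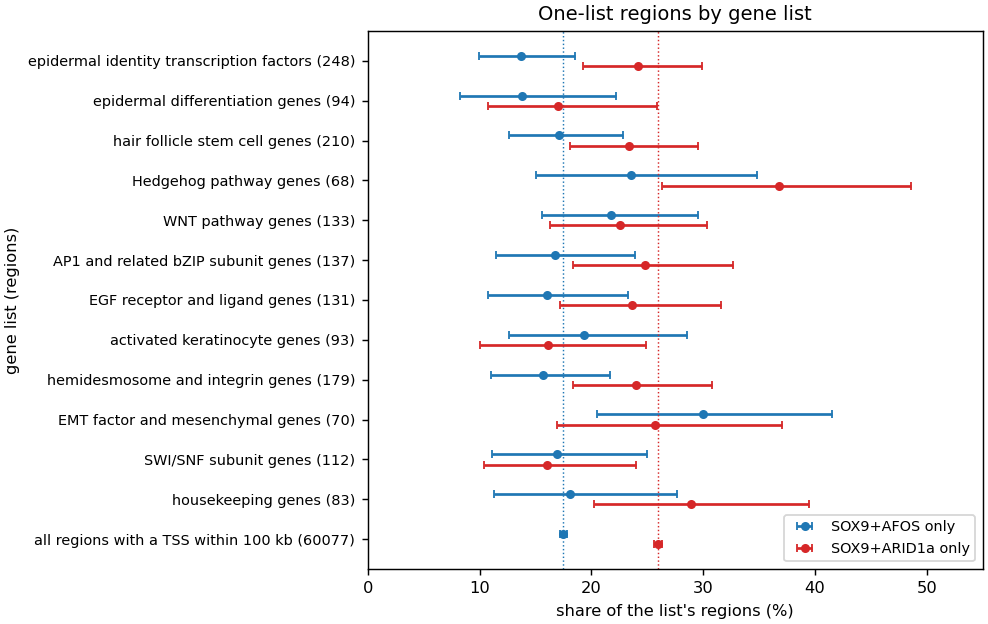
Share of the regions of each gene list (y axis, number of regions in brackets) that were SOX9+AFOS-only or SOX9+ARID1a-only (x axis, %), with 95% Wilson intervals, and the shares over all regions with a TSS within 100 kb as dotted lines (17.5% and 26.0%). In 7 of the 12 lists both intervals hold the dotted lines, and the Hedgehog genes (36.8% SOX9+ARID1a-only) and the EMT and mesenchymal genes (30.0% SOX9+AFOS-only) lie above them.

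Single loci showed how the classes lay along a gene. At Trp63 (chr16:25683763-25892102) 13 regions were shared, among them the one 91 bp upstream of a TSS, with scores of 19.9 in SOX9+AFOS and 17.8 in SOX9+ARID1a. Its 9 SOX9+ARID1a-only regions scored low, at most 6.002, and 6 were open in noDOX. At Gata3, a factor of epidermal lineage choice, 6 regions were shared, 4 were SOX9+ARID1a-only and 1 was SOX9+AFOS-only. The Gata3 region at chr2:9802843-9803428 held 3 AP1 matches and 1 SOX match, scored 5.57 in SOX9+ARID1a, and was open in noDOX (21.3), WT-SOX9 (8.19), AFOS (10.3) and D0 (39.8). A shared region at chr2:9835089-9835621, 43245 bp downstream of the TSS, scored 73.9 in SOX9+ARID1a, 14.9 in SOX9+AFOS, 40.0 in noDOX and 53.3 in WT-SOX9. Runx1 had 18 shared, 6 SOX9+ARID1a-only and 4 SOX9+AFOS-only regions, the highest of the last at 17.6, with 13.1 in WT-SOX9 and none in noDOX.

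The basal keratin genes had nearly all of their regions in both lists, with scores near the TSS within 2-fold of each other. Krt5 had 10 shared regions and 1 SOX9+ARID1a-only region, and its region 96 bp upstream of the TSS scored 8.94 in SOX9+AFOS and 6.83 in SOX9+ARID1a. Of its 10 shared regions 5 differed by over 2-fold, 3 of them higher with AFOS (24.5 and 7.17, 16.5 and 5.29, 15.0 and 3.54) and 2 with ARID1a (3.19 and 7.87, 6.49 and 13.8). Krt14 had 6 shared regions and none of 1 list, and its TSS region scored 30.9 and 32.5. A Krt14 region 2372 bp upstream of the TSS scored 47.1 in SOX9+AFOS, 12.1 in SOX9+ARID1a and 6.76 in WT-SOX9, with no noDOX peak. Ctnnb1, which codes for β-catenin, had 7 shared and 3 SOX9+ARID1a-only regions, 2 of the 3 with AP1. Vim, a mesenchymal filament gene, had 3 shared regions that scored 11.97 to 14.9 with AFOS and 3.09 to 10.8 with ARID1a, besides its 2 SOX9+AFOS-only regions. Fos had 12 shared regions, of which the one at its TSS scored 45.5 and 22.5. At Sox9 the region 70493 bp upstream of the TSS, which scored 54.0 in WT-SOX9, scored 9.77 in SOX9+AFOS and 5.78 in SOX9+ARID1a, and had no peak in noDOX or AFOS.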

How the data were processed

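ATAC-seq reads were aligned to mm10 with Bowtie2 2.2.9 and peaks were called with MACS2 2.1.1 per the submitters' processing notes, which also name Picard 2.3.0, SAMtools 1.9 and deepTools 2.5.4. Replicate alignments were pooled by the authors for peak calling, and the deposited score of each peak is scaled to the total of its list. The read depth behind a peak is unknown, so precision is given as counting error over regions. Here peaks of both lists were merged at an overlap of 1 bp with Python 3.11.15, numpy 2.4.6, pandas 2.3.3 and scipy 1.17.1, figures were drawn with matplotlib 3.10.9, and genes were taken from GENCODE M21 on GRCm38.p6. Consensus matches were counted in the central 200 bp on both strands, and shares carry 95% Wilson and differences Newcombe intervals. Scripts were tested on simulated data. No test between arms was run, since each arm had 1 list. Genes and regions were named by rule: the highest-scoring regions of each class (6), the genes with the most one-list regions (12 a class), the list members with the largest imbalance (4 a list), the shared regions with the largest score ratio (5 a side, with a score of at least 10 in either list) and fixed loci. The members and lists were chosen with earlier results of these data known. Alternatives were a score of at least 5, lists cut to equal length, an own score of at least 6, a 50% overlap, distal regions, whole regions, a TSS limit of 5 kb and genes by body with 50 kb on each side. Those for CTCF were chosen after seeing the data.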

Additional observations from a re-analysis of the deposited data

How the results depend on the processing

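Of 38 recomputed differences between SOX9+ARID1a-only and SOX9+AFOS-only regions, in percentage points, 37 kept their sign. The exception was the SOX share, at -0.403 among one-list regions with an own score of at least 6. That setting gave 43.2 for noDOX, 15.8 for WT-SOX9, 36.7 for AFOS, 42.2 for AP1, -12.7 for a TSS within 1 kb and -5.07 for CTCF. A score of at least 5 gave 28.7 for noDOX, 5.45 for WT-SOX9, 24.1 for AFOS, -14.6 for the TSS and -6.49 for CTCF. Lists cut to equal length gave 33.8 for noDOX, 39.2 for AP1 and -10.38 for the TSS. Distal regions gave 37.4 for noDOX, 12.05 for WT-SOX9, 34.3 for AFOS and -8.27 for CTCF. Searching whole regions gave 44.9 for AP1 and -8.73 for CTCF, and a limit of 5 kb gave -8.24 for the TSS. The cause of these shifts was not tested. Of 24 gene list counts, 11 stayed within 1.5 times when genes were taken by body with 50 kb on each side. No paired analysis was possible because the replicates of each group had been merged before peaks were called. With 1 list per arm, the spread between cultures is unknown, an absent peak is only one under the score limit, and list length, calling and arm cannot be told apart.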

Other observations

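In the 3 lists whose peak names carry a fragment mark, AP1 and CTCF matches, but not SOX matches, lay off the peak centre towards lower coordinates. The median offset of TGACTCA was -8 bp in SOX9+AFOS, -15 bp in SOX9+ARID1a and -10 bp in AFOS, against -2 to 0 bp in the other 9 lists. For CTCF it was -24, -29 and -31 bp, against -2 to 2 bp. For SOX it was -2, -3 and 1 bp, against -3 to 3 bp. Its part in the shares of matches in the central 200 bp was not tested, and whole regions gave an AP1 difference of 44.9 percentage points.

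SOX9+ARID1a-only regions with TGACTCA were open in other lists more often than those without it, in 71.2% against 54.0% for noDOX, 72.4% against 53.5% for AFOS, 45.3% against 41.8% for WT-SOX9 and 56.4% against 41.9% for W12. Their median score was 6.26, against 5.61.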
